A study of Mus musculus with 6 samples.

Results

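The genes described are 10 feedback inhibitors of the ERK pathway: 5 MAP kinase phosphatases (Dusp1, Dusp4, Dusp5, Dusp6 and Dusp7), 3 Sprouty genes (Spry1, Spry2 and Spry4) and 2 Spred genes (Spred1 and Spred2). They were chosen by symbol, with earlier results of these data known. All 10 were found among the 29493 genes of the deposited count table, and all 10 were among the 18067 that passed the filter on low counts. RNA was sequenced from HT22, an established neuronal cell line of mouse hippocampal origin, in a derivative with genotype HT22-TR/TO-V5Klf13-1, which expresses V5-tagged KLF13, a Krüppel-like transcription factor with zinc fingers, from a stable transgene governed by the tet repressor. The Dox group (n = 3) received doxycycline at 1 µg/ml for 8 hours and the Vehicle group (n = 3) received vehicle, and cells of both groups carried the repressor and the transgene. Whether a group's samples came from separate cultures is not in the labels, so p-values reflect only the spread among these samples, which could be purely technical. Doxycycline in cells without the transgene was not analysed here, so effects of the drug and of KLF13 cannot be told apart.

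Growth factor receptors activate RAS, which activates the RAF, MEK and ERK kinases in turn, and active ERK induces the transcription of genes that shut the same pathway down. Sprouty proteins act near the receptors and RAF, Spred proteins bring the RAS inhibitor neurofibromin to the membrane, and the dual-specificity MAP kinase phosphatases remove the activating phosphates from ERK, JNK or p38. In neurons this loop limits responses to neurotrophins and to electrical activity. Transcript levels measure neither the proteins nor the phosphorylation of ERK.

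Library totals ranged from 38566798 to 52930384 counts. The induced gene Klf13 had 204.6, 187.7 and 183.6 CPM (its counts relative to the effective library size) in the Dox libraries, against 37.0, 36.1 and 39.1 CPM in the Vehicle libraries. Of all genes tested, 54.7% passed the test between Dox and Vehicle (edgeR quasi-likelihood test, Benjamini-Hochberg adjusted p under 0.05), 25.9% higher and 28.8% lower. Upper-quartile scaling gave 6246 genes higher and 4457 lower, against 4687 and 5203 with the TMM scaling used, and it moved the median log2 fold change of all tested genes to 0.11, against 0.02 with TMM. Among neuron markers 5 of 8 were in the table, and Rbfox3, Snap25 and Nefl were not. The beta-tubulin gene Tubb3 was at 14.7 ± 0.410 CPM with Dox and 60.7 ± 0.210 CPM with Vehicle (SD, n = 3 each), while Map2 and Syp were below 0.5 CPM in every library. Of 7 fibroblast markers, the 6 in the table summed to 8092 to 8478 CPM with Dox and 9903 to 10435 CPM with Vehicle. The summed levels of astrocyte markers (4 of 5 in the table) were 44.03 to 47.1 CPM with Dox and 37.1 to 40.03 CPM with Vehicle, those of oligodendrocyte markers (3 of 4) were 1.03 to 1.17 CPM with Dox and 1.66 to 2.25 CPM with Vehicle, and those of microglia markers (5 of 5) were 7.27 to 8.02 CPM with Dox and 5.59 to 5.998 CPM with Vehicle. Summed levels of the neuron markers were 25.2 to 26.5 CPM with Dox and 84.7 to 85.5 CPM with Vehicle. Col1a1, Col1a2 and Col3a1 made up nearly all of the fibroblast sum. Means with Dox and Vehicle were 32.5 and 51.9 CPM for Pdgfra and 4.24 and 5.01 CPM for Dcn. Slc1a3 made up most of the astrocyte sum (mean 45.7 CPM with Dox and 38.4 CPM with Vehicle). Ptprc made up most of the microglia sum (mean 7.26 CPM with Dox and 5.38 CPM with Vehicle). All samples were of the HT22 derivative, and a marker's level does not by itself show that cells of that type were present. In bulk RNA, fewer cells of a type and less RNA per cell cannot be told apart. The part of these marker shifts in the results below was not tested.

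Of the 10 feedback genes, 3 rose with Dox (Spry4, Dusp1 and Dusp6), 5 fell (Spry2, Spred1, Dusp4, Dusp5 and Spred2) and 2 did not pass the test (Dusp7 and Spry1). Beside this count of 8 stands the 54.7% of all tested genes that passed. Among genes with a mean of at least 5 CPM, as all 10 have, 70.9% passed when tested alone. The changes were mostly small: the median absolute log2 fold change was 0.26 over the 10 genes and 0.33 over all tested genes, and 0 of the 10 changed 2-fold or more, against 10.3% of all tested genes. The median log2 fold change of the 10 genes was -0.16, and that of all tested genes was 0.02. Values of the Dox and Vehicle libraries did not overlap for 9 of the 10 genes, 3 of them higher and 6 lower with Dox, where 64.0% of all tested genes had groups that did not overlap, 31.8% higher and 32.2% lower. Each family held members that changed, and the phosphatases and the Sprouty genes held members that changed in opposite directions. Against a 1.2-fold change (edgeR glmTreat), 3 of the 10 passed (Spry4, Spry2 and Spred1), beside 33.4% of all tested genes.

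**Figure D1:**
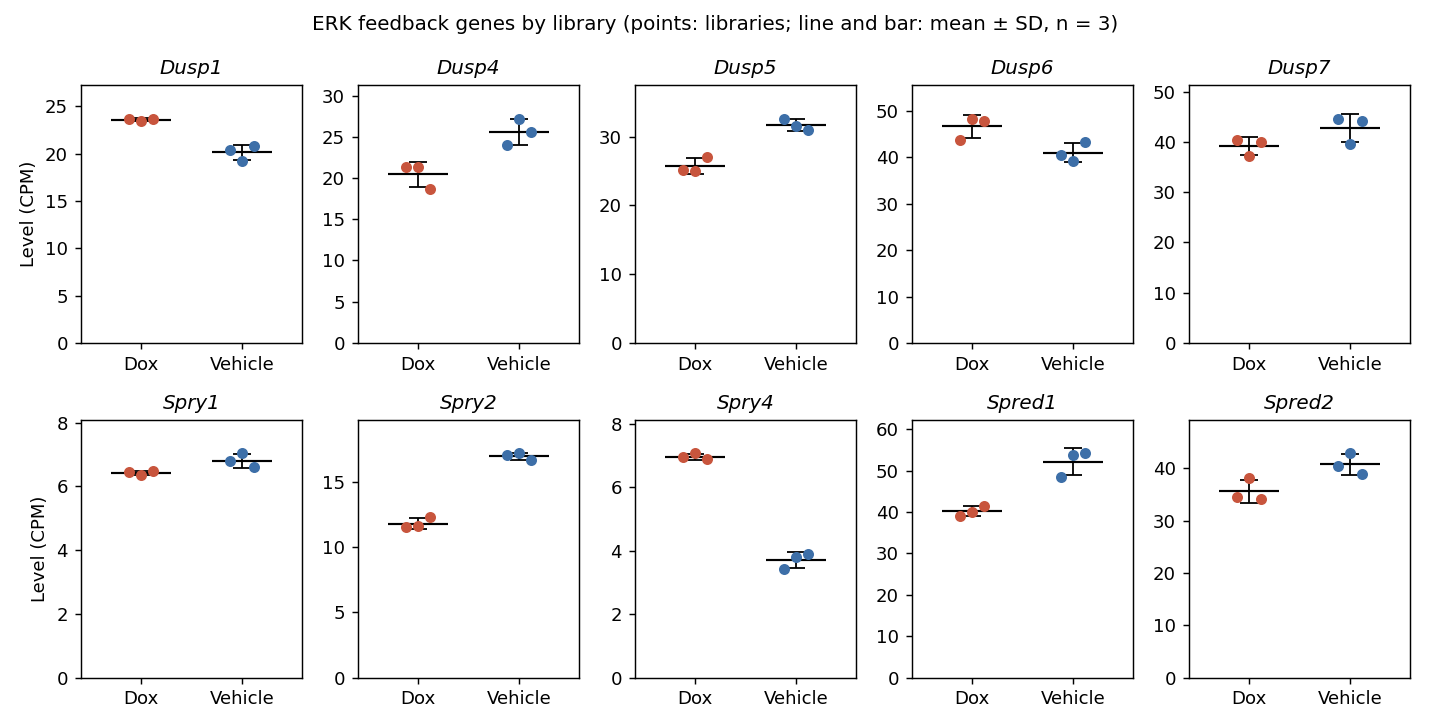
Level of each ERK feedback gene in CPM on linear axes from 0, with the 3 Dox libraries left of the 3 Vehicle libraries. Lines and bars give the mean ± SD. Spry4 stands at 6.88 to 7.07 CPM with Dox and 3.42 to 3.90 CPM with Vehicle, and Dusp7 is the gene whose groups overlap.

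The Sprouty genes gave the largest rise and the largest fall among the 10. Spry4, a Sprouty that restrains RAS and RAF activation downstream of growth factor receptors, is annotated at chr18:38586247-38601415, minus strand (GRCm38 coordinates here and below, with the annotation of GENCODE M21). It had 6.95, 7.07 and 6.88 CPM in the Dox libraries (296 to 349 counts), against 3.42, 3.82 and 3.90 CPM in the Vehicle libraries (129 to 202 counts). Every Dox library was above every Vehicle library by a wide margin. The rise was 1.87-fold (log2 fold change 0.91 ± 0.066 SE, edgeR adjusted p = 5.37e-05), and its absolute size was at the 87.3rd percentile of all tested genes. Spry2, the highest of these 3 paralogs per length, is at chr14:105891947-105896819, minus strand. It had 11.5, 11.6 and 12.3 CPM in the Dox libraries, against 17.0, 17.2 and 16.6 CPM in the Vehicle libraries. The groups were well separated and the spread within each was small. The fall was 1.44-fold (log2 fold change -0.52 ± 0.047 SE, edgeR adjusted p = 1.34e-04). Spry1, which is required in mice for normal kidney development and is at chr3:37639947-37644598, plus strand, had 6.44, 6.36 and 6.47 CPM with Dox, against 6.79, 7.04 and 6.60 CPM with Vehicle. The Dox values were all slightly lower, but the gene did not pass the test (log2 fold change -0.08, 95% interval -0.20 to 0.04, adjusted p = 0.316), and the sign turned under upper-quartile scaling (log2 fold change 0.010) and the transcript GC offset (0.053). Spry1 shares 710 exonic bases with Gm42922 on the other strand, which was at 0.237 ± 0.129 CPM with Dox and 0.135 ± 0.0254 CPM with Vehicle (SD, n = 3 each).

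Relative to each other, Spry4 took a larger share and Spry2 a smaller share of the Spry1, Spry2 and Spry4 transcripts with Dox. The fourth paralog, Spry3, is not in these sums and was at 10.03 ± 0.525 CPM with Dox and 9.91 ± 0.247 CPM with Vehicle (SD, n = 3 each). To compare genes, CPM were divided by the length of the longest coding transcript in kilobases. On this scale the summed level of Spry1, Spry2 and Spry4 was 9.43 ± 0.197 with Dox and 11.4 ± 0.203 CPM per kilobase with Vehicle (SD, n = 3 each). Spry4 made up 15.7, 15.9 and 15.0% of that sum in the Dox libraries, against 6.35, 6.94 and 7.34% in the Vehicle libraries. Spry2 made up 59.3, 59.5 and 60.9% with Dox, against 72.03, 71.1 and 71.4% with Vehicle. The share of Spry1 was 24.6 ± 0.405% with Dox and 21.6 ± 0.314% with Vehicle (SD, n = 3 each), although its own level did not pass the test. Of these 3 genes, Spry2 had the highest level per length and Spry4 the lowest in every library.

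**Figure D2:**
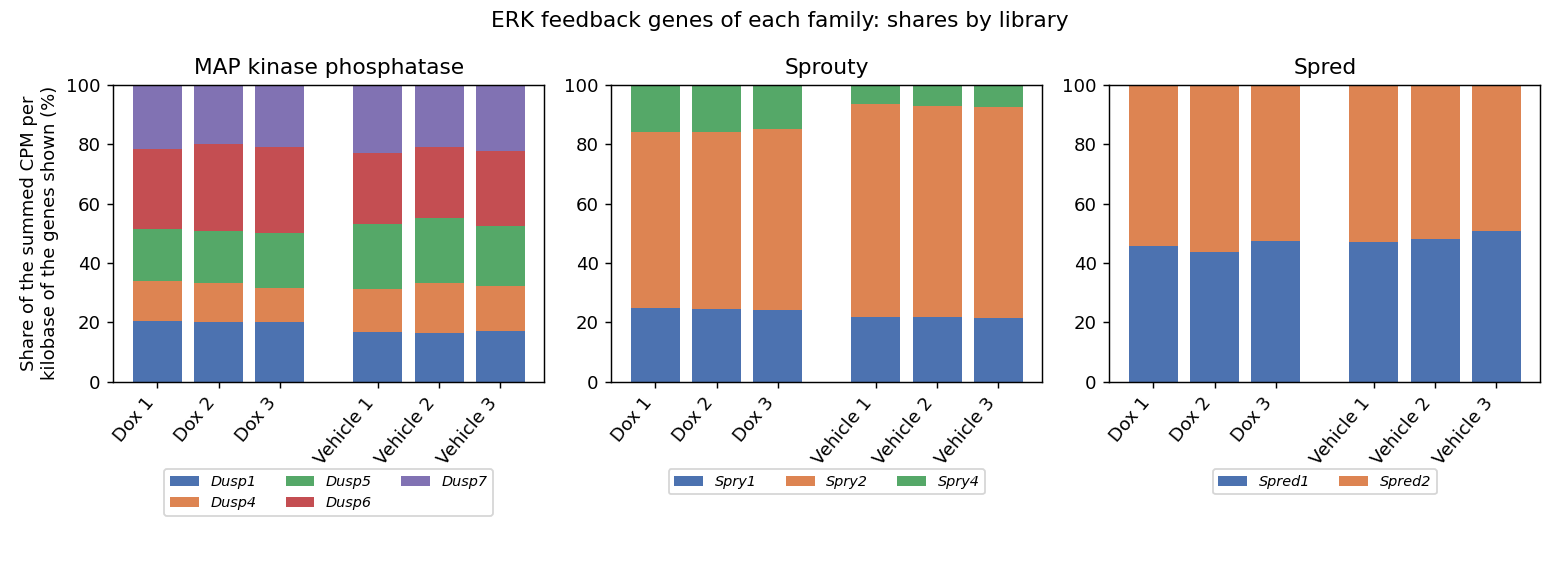
Share of each of the 10 genes in the summed CPM per kilobase of those of the same family, in percent, for the 3 Dox libraries (left bars) and the 3 Vehicle libraries (right bars) of each panel. The Spry4 band is 15.0 to 15.9% with Dox and 6.35 to 7.34% with Vehicle, while the Spred panel shifts little.

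Among the phosphatases, Dusp1 and Dusp6 rose and Dusp4 and Dusp5 fell. Dusp1 encodes MKP-1, a nuclear phosphatase of p38 and JNK as well as ERK, and is at chr17:26505590-26562128, minus strand. It had 23.7, 23.4 and 23.6 CPM in the Dox libraries, against 20.3, 19.2 and 20.8 CPM in the Vehicle libraries. The Dox values were almost equal to each other and above all Vehicle values. The rise was 1.17-fold (log2 fold change 0.23 ± 0.045 SE, edgeR adjusted p = 0.00516). Dusp6 encodes MKP-3, the cytoplasmic phosphatase specific for ERK, and is at chr10:99263231-99267489, plus strand. It had 43.9, 48.4 and 47.9 CPM in the Dox libraries, against 40.6, 39.2 and 43.3 CPM in the Vehicle libraries. The lowest Dox library was just above the highest Vehicle library. The rise was 1.14-fold (log2 fold change 0.19 ± 0.056 SE, adjusted p = 0.0291). The call was kept without Dox replicate 1 (edgeR adjusted p = 0.0190) and without Vehicle replicate 3 (0.0224). It was lost without Dox replicate 2 (0.0983), Dox replicate 3 (0.0940), Vehicle replicate 1 (0.0815) or Vehicle replicate 2 (0.0857).

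Dusp4 encodes MKP-2, a nuclear phosphatase, and is at chr8:34807297-34819894, plus strand. It had 21.3, 21.3 and 18.6 CPM in the Dox libraries, against 24.0, 27.2 and 25.6 CPM in the Vehicle libraries. All Dox values were below all Vehicle values, with a wider spread than that of Dusp1. The fall was 1.254-fold (log2 fold change -0.33 ± 0.075 SE, edgeR adjusted p = 0.00996). Dusp5, a nuclear phosphatase that acts on ERK and not on JNK or p38, is at chr19:53529109-53542431, plus strand. It had 25.1, 25.03 and 27.04 CPM in the Dox libraries, against 32.6, 31.6 and 30.9 CPM in the Vehicle libraries. The groups did not overlap, and the fall was 1.23-fold (log2 fold change -0.30 ± 0.047 SE, adjusted p = 0.00187). Dusp5 shares 547 exonic bases with the antisense gene AC137853.2, which was not analysed here, and the use of strand in counting is not given in the sources used here. Dusp7, a cytoplasmic phosphatase that prefers ERK, is at chr9:106368632-106375724, plus strand, and had 40.4, 37.2 and 39.9 CPM with Dox, against 44.6, 39.5 and 44.2 CPM with Vehicle. Vehicle replicate 2 lay within the Dox range, so the groups overlapped. The log2 fold change was -0.13 (95% interval -0.27 to 0.02, adjusted p = 0.122), the sign turned under the transcript GC offset (0.045), and without Vehicle replicate 2 it was -0.18 with an adjusted p of 0.0244. The summed level of the 5 phosphatase genes was 58.6 ± 0.539 CPM per kilobase with Dox and 60.3 ± 1.45 CPM per kilobase with Vehicle (SD, n = 3 each).

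Spred1 and Spred2 both fell. Spred1, whose human counterpart is mutated in Legius syndrome, is at chr2:117121374-117182279, plus strand. It had 39.1, 40.02 and 41.4 CPM in the Dox libraries, against 48.5, 53.9 and 54.2 CPM in the Vehicle libraries. The groups were clearly apart. The fall was 1.299-fold (log2 fold change -0.38 ± 0.053 SE, edgeR adjusted p = 0.00106). Spred2, its closest paralog, is at chr11:19924375-20024026, plus strand. It had 34.5, 38.2 and 34.2 CPM in the Dox libraries, against 40.4, 42.9 and 38.9 CPM in the Vehicle libraries. Dox replicate 2 came close to the lowest Vehicle library without reaching it. The log2 fold change was -0.19 ± 0.060 SE (adjusted p = 0.0330), and this call was the least stable of the 8. Its adjusted p was 0.169 with upper-quartile scaling, 0.0696 with no filter, 0.146 with the transcript length offset, 0.0995 without Dox replicate 1, 0.0982 without Dox replicate 3, 0.0672 without Vehicle replicate 1 and 0.0890 without Vehicle replicate 2. The summed level of the 2 genes was 14.7 ± 0.503 CPM per kilobase with Dox and 17.8 ± 0.723 CPM per kilobase with Vehicle, and Spred1 made up 45.5 ± 1.79% of it with Dox and 48.6 ± 1.88% with Vehicle (SD, n = 3 each).

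**Figure D3:**
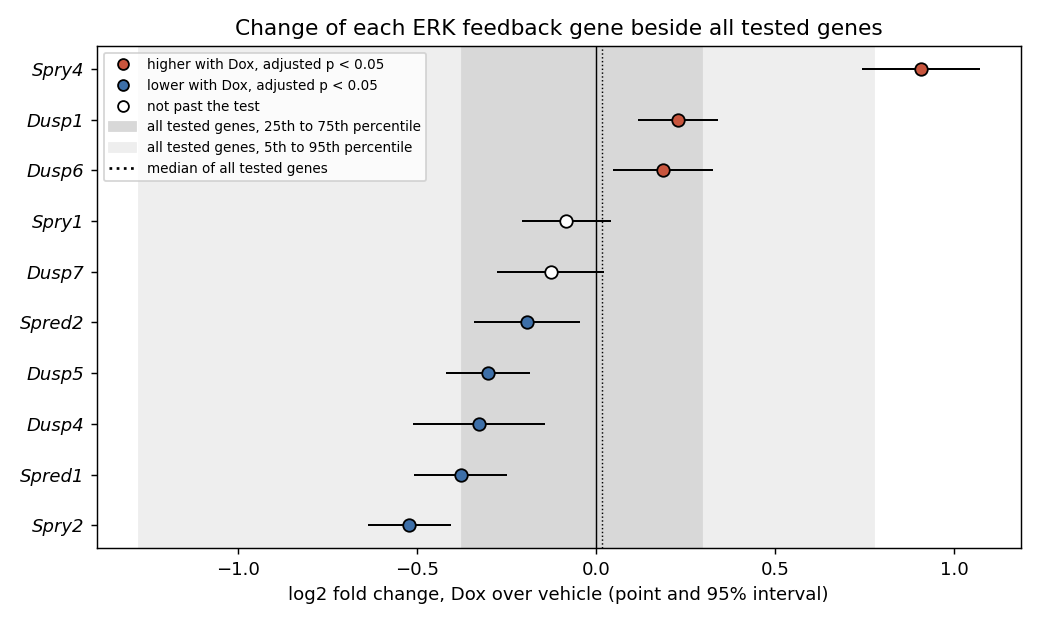
The log2 fold change of Dox over Vehicle for each ERK feedback gene, with its 95% interval, over bands that hold the central part of all tested genes. Spry4 (0.91) lies above the 95th percentile of all tested genes (0.78), while the other 9 genes lie between -0.52 and 0.23.

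On the scale of the longest coding transcript, the 5 phosphatase genes were above Spry1, Spry2 and Spry4. In the Vehicle libraries Dusp6 was highest at 14.7 ± 0.739 CPM per kilobase, followed by Dusp7 (13.3 ± 0.881), Dusp5 (12.8 ± 0.347), Dusp1 (10.1 ± 0.410), Dusp4 (9.35 ± 0.582), Spred2 (9.16 ± 0.446), Spred1 (8.68 ± 0.527), Spry2 (8.12 ± 0.135), Spry1 (2.45 ± 0.0795) and Spry4 (0.781 ± 0.0538; SD, n = 3 each). Neighbours in this order overlapped between Dusp7 and Dusp5 and along the run from Dusp1 through Dusp4, Spred2 and Spred1 to Spry2, while Dusp6, Spry1 and Spry4 were separate from their neighbours. With Dox, Dusp1 (11.8 ± 0.0710) stood above Dusp5 (10.4 ± 0.466) and Spred2 (8.01 ± 0.499) above Dusp4 (7.46 ± 0.569; CPM per kilobase, SD, n = 3 each). Spry1 and Spry4 had the lowest levels on each of the 3 length scales tried, but other places depended on the scale: Dusp7 was highest in both groups with the median length of coding transcripts, and with total exonic length Dusp1 was below Spry2 in the Vehicle libraries.

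Genes with the pattern most like that of Spry2 and Spry4, the pair that changed most, were sought across the 6 libraries. The measure was the root-mean-square difference of log2(CPM + 0.5), each gene set to its own Vehicle mean, over genes with a mean of at least 2 CPM. Closest to Spry2 were Ap2b1, a clathrin adaptor subunit (0.0119), Acadl, a mitochondrial fatty acid dehydrogenase (0.0131), and Fads3, of the fatty acid desaturase family (0.0181). Closest to Spry4 were Ankzf1, which acts in ribosome quality control (0.0166), Tigar, a fructose bisphosphatase (0.0185), and Cep97, a centrosomal protein (0.0269). The likeness rests on the 2 groups and on 6 libraries.

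RefSeq promoter windows (GRCm38.p6) were matched by symbol for 8 of the 10 genes, and the 250 bases before the start site were searched on both strands. For 7 of the 8 windows, bases 21 to 50 after the start site lay in a GENCODE transcript on the same strand. The Dusp1 window lies inside the GENCODE span of Dusp1 given above, not upstream of that span. The search used GGGCGG (GC box), CCNCNCCC (a consensus of Krüppel-like factors, which can overlap the GC box), CCGGAA (the core of ETS sites), TGACGTCA (the cAMP response element) and the CArG box of serum response factor. The promoters of Dusp1, Dusp5 and Spred1 are shown because they hold most of the matches and belong to 1 gene that rose and 2 that fell; capitals mark the matches.
Dusp1, chr17:26508473-26508722, minus strand: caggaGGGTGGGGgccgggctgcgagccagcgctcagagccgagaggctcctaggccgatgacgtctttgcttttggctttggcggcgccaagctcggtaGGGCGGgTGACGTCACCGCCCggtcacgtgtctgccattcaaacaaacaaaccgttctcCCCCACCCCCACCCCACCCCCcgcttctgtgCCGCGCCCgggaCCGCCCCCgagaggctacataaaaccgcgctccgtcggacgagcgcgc
Dusp5, chr19:53528895-53529144, plus strand: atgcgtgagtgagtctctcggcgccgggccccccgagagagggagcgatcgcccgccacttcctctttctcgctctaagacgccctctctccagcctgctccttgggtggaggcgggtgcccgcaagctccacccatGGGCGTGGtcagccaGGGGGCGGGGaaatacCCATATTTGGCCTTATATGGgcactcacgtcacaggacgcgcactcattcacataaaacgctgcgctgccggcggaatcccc
Spred1, chr2:117120821-117121070, plus strand: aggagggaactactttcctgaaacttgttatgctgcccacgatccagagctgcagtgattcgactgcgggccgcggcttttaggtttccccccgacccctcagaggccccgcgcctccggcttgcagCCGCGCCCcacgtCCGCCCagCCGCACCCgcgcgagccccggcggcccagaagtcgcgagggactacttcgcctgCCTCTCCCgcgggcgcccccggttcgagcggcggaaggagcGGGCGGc
Dusp1 held 8 matches to CCNCNCCC, 3 to GGGCGG and 1 to TGACGTCA at positions -143 to -136 from the start site, with several matches overlapping. Dusp5 held the CArG boxes CCATATTTGG at -82 to -73 and CCTTATATGG at -72 to -63, beside 3 matches to CCNCNCCC and 1 to GGGCGG. Spred1 held 3 matches to CCNCNCCC and 2 to GGGCGG. In all, CCNCNCCC was found in 6 of the 8 windows and in 45.9% of all 32851 promoter windows of this length, and GGGCGG in 5 of the 8 and in 32.7% of all. TGACGTCA occurred in 1 of the 8 windows (1.55% of all), the CArG box in 1 (1.47% of all) and CCGGAA in 0 (12% of all). The windows of Dusp6, which rose, and Spry2, which fell, held 0 matches to any of the 5 motifs. The G and C content of the 8 windows ran from 56% for Spred2 to 77.2% for Dusp7. Among all windows these values were at the 61.3rd and 97.4th percentiles. The motif shares were not adjusted for G and C content. A match is a description of the letters and not of binding.

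Sequence features of the transcripts also differed among the 10 genes. AU-rich elements in the 3' untranslated region are known to shorten the life of many feedback transcripts, and ATTTA is their core. In the longest coding transcript, ATTTA occurred 5.80 times per kilobase in the 3' untranslated region of Dusp1, 2.77 times in that of Spred1 and 2.34 times in that of Spry2, while Dusp7 had 0. The median over 19764 coding genes with at least 100 such bases was 1.35, and 7 of the 10 genes were above it. The longer element TTATTTATT was found 2 times in Dusp1 and in 0 of the other 9 genes, against 8.02% of coding genes that hold it. Of the genes that rose, Dusp1 had 5.80, Spry4 1.97 and Dusp6 0.841 ATTTA per kilobase. Of those that fell, Spred1 had 2.77, Spry2 2.34, Dusp4 1.80, Spred2 1.55 and Dusp5 0.902. A relation of these counts to the fold changes was not tested.

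The remaining paralogs fell or did not pass the test. Of 7 genes 6 were tested, 3 fell and 0 rose, and their median log2 fold change was -0.30, beside 54.7% called and a median of 0.02 over all tested genes. Dusp9, the ERK phosphatase MKP-4, had 19.5, 19.2 and 17.9 CPM in the Dox libraries, against 41.7, 43.0 and 43.6 CPM in the Vehicle libraries. Its fall of 2.26-fold (log2 fold change -1.18 ± 0.046 SE, edgeR adjusted p = 4.94e-06) was larger than any change among the 10 genes. Spred3 fell to 5.84 ± 0.310 CPM with Dox, against 10.8 ± 0.236 CPM with Vehicle (SD, n = 3 each), and shares 202 exonic bases with Ggn. Dusp8, a phosphatase of JNK and p38, fell to 26.4 ± 0.443 CPM with Dox, against 32.7 ± 0.795 CPM with Vehicle (SD, n = 3 each). Its log2 fold change of -0.31 was -0.20 with the transcript length offset and -0.099 with the transcript GC offset, where its call was lost (adjusted p = 0.0513), as it was against a 1.2-fold change (0.112). Dusp10 (log2 fold change -0.04), Dusp16 (-0.28) and Spry3 (0.02) did not pass the test, and the signs of Dusp10 and Spry3 turned under some alternatives. Dusp8, Dusp10, Dusp16, Spry3 and Dusp2 were named to complete the list, after their values were seen. Dusp2 had 0 to 3 counts with Dox and 0 to 4 with Vehicle and was not tested.

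Of 13 other negative regulators of RAS and ERK, 7 fell, 2 rose and 4 did not pass, with a median log2 fold change of -0.56. Over all tested genes 28.8% fell and 25.9% rose, and 70.9% of those with a mean of at least 5 CPM passed in either direction. Pea15a, which holds ERK in the cytoplasm, had 19.2, 17.9 and 19.8 CPM with Dox, against 85.4, 88.2 and 97.8 CPM with Vehicle, a 4.77-fold fall. Part of its counts may belong to Dcaf8, with which it shares 123 exonic bases. Dcaf8 itself was higher with Dox, at 88.7 ± 1.43 CPM, against 73.5 ± 1.44 CPM with Vehicle (SD, n = 3 each). Rasa2, a GTPase-activating protein of RAS, fell 2.92-fold to 8.91 ± 0.348 CPM with Dox, against 26.04 ± 1.27 CPM with Vehicle (SD, n = 3 each). Nf1, the neurofibromin gene whose product Spred proteins recruit, had 27.7, 33.03 and 21.04 CPM with Dox, against 71.5, 81.6 and 74.4 CPM with Vehicle (log2 fold change -1.48 ± 0.16 SE, edgeR adjusted p = 3.17e-04). Errfi1, an inhibitor of the EGF receptor family, and Rasa3, another GTPase-activating protein, rose by 0.28 ± 0.031 and 0.27 ± 0.035 on the log2 scale (SE). Nf1 and the ERK1 gene were named because the feedback proteins act through them, after their values were seen.

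In the RAS, RAF, MEK and ERK core, 11 of the 19 genes tested fell, 2 rose and 6 missed the threshold (median log2 fold change -0.23), beside 54.7% called over all tested genes and 70.9% over those with a mean of at least 5 CPM. The ERK1 gene Mapk3 had 17.3, 14.3 and 16.2 CPM in the Dox libraries, against 53.9, 43.2 and 45.6 CPM in the Vehicle libraries, a 2.98-fold fall (log2 fold change -1.58 ± 0.11 SE, edgeR adjusted p = 3.93e-05). Map2k2, which encodes MEK2, fell to 105.1 ± 1.84 CPM with Dox, against 184.3 ± 7.61 CPM with Vehicle, and the adaptor gene Shc1 fell to 66.1 ± 0.946 CPM with Dox, against 94.5 ± 1.41 CPM with Vehicle (SD, n = 3 each). The RAF kinase gene Araf rose by 0.26 ± 0.051 on the log2 scale (SE).

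Genes induced by ERK, other than the feedback inhibitors, moved in both directions. Of 18 tested, 8 rose, 9 fell and 1 did not pass, with a median log2 fold change of -0.04, beside 25.9% higher and 28.8% lower over all tested genes. Ier2, an immediate early gene, had 54.4, 56.8 and 56.6 CPM with Dox, against 33.6, 32.6 and 33.6 CPM with Vehicle, and Ier3 rose by 0.34 ± 0.036 on the log2 scale (SE). Etv4, an ETS factor, had 29.6, 31.2 and 30.5 CPM with Dox, against 52.7, 51.5 and 53.6 CPM with Vehicle. Hbegf, a ligand of the EGF receptor, fell to 16.9 ± 0.0612 CPM with Dox, against 26.1 ± 0.837 CPM with Vehicle (SD, n = 3 each). Under a test against a 1.2-fold change, 11 of these 18 genes and 7 of the 19 core genes were called, beside 33.4% of all tested genes.

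Kinases of the JNK and p38 pathways include substrates of Dusp1 and Dusp4. Of the 8 tested, 4 were lower, 2 higher and 2 missed the threshold (median log2 fold change -0.35), beside 54.7% called over all tested genes. Mapk11, which encodes p38 beta, had 1.32, 1.76 and 2.00 CPM with Dox, against 24.1, 22.1 and 22.2 CPM with Vehicle, a 13.4-fold fall. Mapk12, which encodes p38 gamma, fell 5.21-fold to 0.866 ± 0.181 CPM with Dox, against 4.53 ± 0.305 CPM with Vehicle (SD, n = 3 each). Mapk14, a p38 gene with a higher level than both, did not pass the test. It had 52.7, 52.5 and 52.8 CPM with Dox, against 44.7, 99.3 and 42.8 CPM with Vehicle. Only Vehicle replicate 2 was above the Dox libraries, and the other Vehicle libraries were below them. Mapk14 was named after its values were seen. The upstream kinase genes Map2k6 and Map2k3 rose by 0.58 ± 0.053 and 0.26 ± 0.034 on the log2 scale (SE). Growth factor receptor genes were lower in 6 of 8 cases tested and higher in 0 (median log2 fold change -0.67), beside 28.8% lower over all tested genes. Fgfr1 had 45.5, 46.0 and 42.7 CPM with Dox, against 74.0, 71.5 and 74.4 CPM with Vehicle, and Erbb2 had 35.8, 37.5 and 38.1 CPM with Dox, against 58.1, 61.1 and 60.7 CPM with Vehicle. Fgfr1 shares 164 exonic bases with Gm16159, which was not analysed here.

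**Figure D4:**
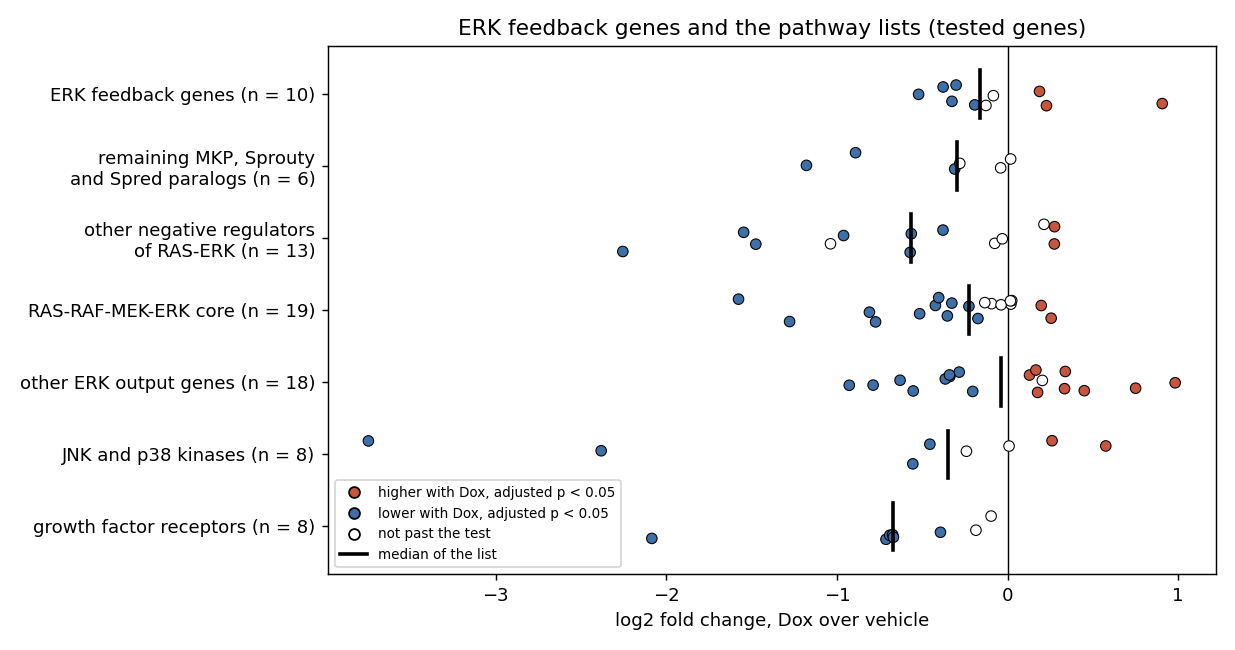
The log2 fold change of Dox over Vehicle for each tested gene (points, coloured by call) of the ERK feedback genes and 6 pathway lists, with the median of each list as a bar. Feedback genes (median -0.16) and other ERK output genes (-0.04) lie on both sides of 0, while all 8 tested receptor genes lie below it (median -0.67).

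The calls on the feedback genes differed in how they stood up to other analyses. Spry4, Spry2 and Spred1 kept their direction and passed under all 17 alternatives tried, with log2 fold changes of 0.85 to 1.02, -0.55 to -0.43 and -0.43 to -0.22. Dusp1, Dusp4 and Dusp5 passed under 16 of the 17, and missed only the test against a 1.2-fold change, with ranges of 0.19 to 0.32, -0.37 to -0.22 and -0.34 to -0.16. The log2 fold change moved by over 1.5 times for Dusp5 with the transcript GC offset (-0.16, against -0.30) and for Spred1 with the transcript length offset (-0.22, against -0.38). That of Spred2 (-0.19) also moved by over 1.5 times, to -0.099 with upper-quartile scaling and -0.094 with the transcript length offset. In the authors' deposited table, 8 of the 10 genes had an adjusted p under 0.05, and 6 carried the authors' call, which 40.3% of the genes with an adjusted p carried. The highest adjusted p in the authors' table among genes with that call was 0.00999, so the call was stricter than 0.05. The log2 fold changes in the authors' deposited table were 0.87 (standard error 0.14) for Spry4 and -0.51 (standard error 0.086) for Spry2.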

How the data were processed

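RNA from 3 Dox and 3 Vehicle samples of the HT22 line with inducible V5-tagged Klf13 was sequenced after extraction with TRIzol reagent, per the labels' protocols. Build GRCm38 is named in the submitters' processing notes, as are DESeq2, StringTie 1.3.3, HISAT2 2.1.0 and FastQC 0.11.3. How strand and multi-mapping reads were treated, and with which annotation, is not given in the sources used here. Whole-number counts per gene were deposited by the authors, with a second table that holds a mean signal over size-factor normalized counts, a log2 fold change with its error, a test score and raw and adjusted p-value columns for each gene, per the file headers.

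The whole table was filtered with filterByExpr, scaled by TMM and fitted with edgeR 4.0.16 (glmQLFit, glmQLFTest; limma 3.58.1, R 4.3.3), all 6 libraries, no covariates, with adjustment over 18067 genes. CPM are counts scaled to the effective library size. Standard errors were taken as log2 fold change divided by √F, and intervals are at 95%. Where counts are low, these errors can be too small and the intervals too narrow. With the DESeq2 Wald test the standard error was 0.12 for Spry1 and 0.14 for Spry4, against 0.050 and 0.066 here. The fit was tested on simulated data. A permutation test of 3 against 3 cannot go below p = 0.1 and was not run. The members and gene lists were chosen with earlier results of these data known. Genes named were all members, Klf13, up to 2 rises and 2 falls with the smallest p in each list, the genes said to be named after their values were seen, and the 3 genes most like the members that changed most; some named results are not reported here. Coordinates and lengths come from GENCODE M21, which may differ from the authors' annotation; exonic overlap is counted from 50 bases. No replicate pair was within counting noise (its chi-square statistic over degrees of freedom was 12.1 to 15.1). The alternatives tried were upper-quartile scaling, scaling by DESeq2 size factors, limma-voom, the Wald test of DESeq2 1.42.0, no filter, a mean CPM of at least 5, glmTreat against 1.2-fold, an adjusted p under 0.01, a replicate block and each library left out in turn. After seeing the data, offsets for the GC content of transcripts and for their length were added. Depth limits the precision most for Spry4, with 129 to 349 counts per library; counting error is part of the spread between libraries.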

Additional observations from a re-analysis of the deposited data

How the results depend on the processing

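Against a 1.2-fold change (glmTreat), 6032 genes were called in all, 2417 of them higher, and 3 of the 10 feedback genes, 1 higher (Spry4) and 2 lower (Spry2 and Spred1); the test itself sets a stricter null. Under the other alternatives 6 to 9 of the 10 were called. Leaving out 1 library gave 6 to 8 feedback genes, 2 or 3 of them higher and 4 or 5 lower, and 8987 to 9330 genes in all. The genes lost were Dusp6 and Spred2, with the values given above; at an adjusted p under 0.01 the same pair was lost. The sign turned for genes that had not passed the test: Spry1 at 0.0105 with upper-quartile scaling and 0.0530 with the GC offset, Dusp7 at 0.0447 with the GC offset, Dusp10 at 0.0534 with upper-quartile scaling, and Spry3, which ranged between -0.0183 and 0.0571 with 1 library left out (-0.0183 without Dox replicate 3, -0.00262 without Vehicle replicate 3); the cause was not tested. With a replicate block, 9 feedback genes and 9699 genes in all were called; Dusp7 then passed (log2 fold change -0.13, adjusted p = 0.0382) and so did Dusp16 (-0.28, adjusted p = 0.0176), and no pairing was assumed, since same-numbered libraries' deviations correlated at 0.0389, 0.0439 and -0.0746. The share of Spry4 in the Sprouty sum was 15.1% with Dox and 6.71% with Vehicle using median transcript lengths, and 15.7% with Dox and 6.95% with Vehicle using total exonic length.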

Other observations

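Other genes with a Dusp symbol, taken by symbol after their values were seen, encode mostly atypical dual-specificity phosphatases. Of 11 such genes 9 were tested, 1 rose, 3 fell and 5 did not pass, with a median log2 fold change of 0.01, beside 54.7% called over all tested genes. Dusp14, an atypical phosphatase that acts on the kinase adaptor TAB1, had 34.2, 37.9 and 26.9 CPM in the Dox libraries, against 19.2, 21.2 and 17.98 CPM in the Vehicle libraries, and rose by 0.76 ± 0.13 on the log2 scale (SE, edgeR adjusted p = 0.00302). Its Dox libraries differed more among themselves than those of any phosphatase described above, and none of them reached the Vehicle range. Dusp22 had 7.75, 7.56 and 7.80 CPM with Dox, against 12.5, 14.5 and 12.5 CPM with Vehicle (log2 fold change -0.77 ± 0.072 SE). Dusp23, a small phosphatase, had 33 to 38 counts in the Dox libraries, against 94 to 123 in the Vehicle libraries, and fell 3.09-fold. Dusp18 had 23 to 28 counts with Dox, against 27 to 40 with Vehicle; its call (log2 fold change -0.52, adjusted p = 0.0291) was lost with the DESeq2 Wald test (adjusted p = 0.269), upper-quartile scaling (0.0715), the transcript length offset (0.0856), the test against a 1.2-fold change (0.105) and an adjusted p under 0.01, and without any 1 library other than Vehicle replicate 1 (0.0509 to 0.128).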
